A study of Mus musculus with 24 samples.

Results

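The replication-dependent histone genes were taken as every gene whose symbol starts with Hist1h, Hist2h, Hist3h or Hist4h, with the values of transcripts of the same symbol summed. This gave 65 of the 25385 genes in the expression tables, namely 6 linker (H1), 18 H2A, 17 H2B, 12 H3 and 12 H4 genes. The Hist1 cluster on chromosome 13 held 51 of them, the Hist2 cluster on chromosome 3 held 10, 3 Hist3 genes lay on chromosome 11 and Hist4h4 lay on chromosome 6. The RNA came from mouse mesenchymal stem cells of the marrow (MSC), a stromal cell that can be turned into osteoblasts or fat cells in culture. Cells were treated with 1,25(OH)2D3, the active hormone of vitamin D (VD3 below), at 100 nM for 24 h before harvest, or with ethanol vehicle, in 4 states. These were adipogenic medium with insulin, indomethacin and dexamethasone for 7 days, osteogenic medium with β-glycerophosphate and ascorbic acid for 15 days or for 7 days, and undifferentiated cells at day 0. Each of the 8 groups had 3 libraries. All groups share their origin, a frozen stock from another laboratory expanded for no more than 10 passages, serum-containing base medium and growth to confluence before the switch. No undifferentiated library from a later day was analysed here; in contrasts with day 0, the medium and the time elapsed cannot be told apart. Whether replicates were separate cultures is not in the labels, and a p-value then covers only how these libraries spread.

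Core histones (H2A, H2B, H3 and H4) package DNA into nucleosomes, and H1 binds the linker DNA between them. The replication-dependent genes lack introns and are transcribed mostly in S phase, when new DNA needs new histones, with NPAT as a shared activator. Their mRNAs usually end in a conserved stem-loop in place of a poly(A) tail; the stem-loop binding protein SLBP guides 3′ end formation and translation, and the mRNAs are degraded when DNA synthesis stops. Some members can instead be polyadenylated, and such transcripts persist in cells that have left the cycle. The libraries here came from total RNA depleted of ribosomal RNA, a preparation that does not select for a poly(A) tail.

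A stem-loop of 16 bases was found in the GENCODE M21 transcripts of 44 of the 65 genes (67.7%), against 370 of 58797 protein-coding transcripts (0.629%). The search required GG, 4 pyrimidines, a loop of 4 bases and the reverse complement of the first 6 bases. One core, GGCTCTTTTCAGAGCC, served 25 genes. The elements below show the RNA end (as DNA, 26 bases, 5′ to 3′, stem-loop in capitals) of genes whose RNA levels went opposite ways in adipogenic cells: Hist1h1c, which was higher, and Hist1h2ac, Hist1h2bb, Hist1h3b and Hist1h3g, which were lower. Between the last amino-acid codon and the stem-loop lay 27 to 35 bases, counting the stop codon.
Hist1h1c: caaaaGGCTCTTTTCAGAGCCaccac
Hist1h2ac: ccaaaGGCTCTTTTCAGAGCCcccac
Hist1h2bb: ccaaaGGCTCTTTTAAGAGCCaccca
Hist1h3b: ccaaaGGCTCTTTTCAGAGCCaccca
Hist1h3g: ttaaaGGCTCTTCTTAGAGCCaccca
Hist1h1c, Hist1h2ac and Hist1h3b shared the same 16-base core. No such element was found in the annotated transcripts of Hist1h1a, Hist1h1b, Hist1h2bc or Hist2h2bb. Some annotated transcripts end at the stop codon, so an element beyond it could not be found. Examples are Hist2h2bb (381 bases, with 378 coding bases before the stop codon) and Hist1h4k (312 and 309). A gene without a match may therefore still have the element.

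RefSeq promoters (GRCm38.p6, 250 bases before to 50 after the start) were matched for 58 members. A CCAAT box, on either strand, was present in 50 of them (86.2%), against 37.4% of 32851 promoters, and in every matched H1, H2A, H2B and H3 promoter but 3 of 11 for H4. TATAA was present in 45 (77.6%, against 24.9%). The octamer ATTTGCAT, the site of POU factors such as Oct1 (Pou2f1), was present in 7 of 17 H2A and 6 of 14 H2B promoters and no other, 22.4% of members against 1.74% of all promoters. AAACACA, the H1 box, was present in 5 of 6 H1 promoters and in 15.5% of members, against 7.18% of all. These motifs do not overlap each other in their letters, and a match is a description only. The promoters of 3 genes with contrasting behaviour below are shown with these motifs, or their reverse complements, in capitals: Hist1h1c (chr13:23738557-23738856, plus strand), Hist1h1a (chr13:23763418-23763717, plus strand) and Hist2h2bb (chr3:96269450-96269749, plus strand).
Hist1h1c promoter: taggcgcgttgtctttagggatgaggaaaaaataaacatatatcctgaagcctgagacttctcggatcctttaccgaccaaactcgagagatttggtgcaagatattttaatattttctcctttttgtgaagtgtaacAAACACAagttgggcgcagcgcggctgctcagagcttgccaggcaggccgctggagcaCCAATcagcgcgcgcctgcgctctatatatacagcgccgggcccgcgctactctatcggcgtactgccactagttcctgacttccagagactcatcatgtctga
Hist1h1a promoter: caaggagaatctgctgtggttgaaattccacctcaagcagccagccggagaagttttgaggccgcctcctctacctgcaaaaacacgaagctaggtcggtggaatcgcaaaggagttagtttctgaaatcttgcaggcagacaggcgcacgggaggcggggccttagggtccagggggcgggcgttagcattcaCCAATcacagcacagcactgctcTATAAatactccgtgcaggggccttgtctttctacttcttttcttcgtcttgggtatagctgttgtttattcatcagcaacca
Hist2h2bb promoter: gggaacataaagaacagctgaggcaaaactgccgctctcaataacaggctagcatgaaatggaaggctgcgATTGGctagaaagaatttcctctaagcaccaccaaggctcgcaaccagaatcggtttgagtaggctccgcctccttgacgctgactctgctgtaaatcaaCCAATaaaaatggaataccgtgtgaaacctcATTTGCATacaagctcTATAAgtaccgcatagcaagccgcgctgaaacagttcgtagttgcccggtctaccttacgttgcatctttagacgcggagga
The Hist1h1c window held CCAAT and the H1 box but no TATAA, the Hist1h1a window CCAAT and TATAA but no H1 box, and the Hist2h2bb window the octamer besides both CCAAT and TATAA.

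Expression was deposited as RPKM, reads per kilobase of transcript, scaled to library size. Depth, estimated in units of 1e6 reads, was 7.12 to 47.2, and lowest (7.12 to 11.0) in 5 of the 6 day-0 libraries. These 5 stood apart from the other 19. Odorant, vomeronasal and taste receptor genes, used as background, had a median of 3.39 to 4.94 RPKM in them and 0.208 to 1.30 RPKM in the others, and 19219 to 20956 genes reached 1 RPKM in them, against 11943 to 14658. The exception was VD3 replicate 2 at day 0, at 0.457 RPKM. Of 1470 receptor genes tested, 1425 were called lower in adipogenic than in day-0 cells, so comparisons against osteogenic day 7 are given beside those against day 0. The groups held the markers of their labels: 6 adipocyte genes summed to 28642 RPKM in adipogenic vehicle cells, against 111 RPKM at day 0, and 6 osteoblast genes to 702 RPKM at osteogenic day 7 and 793 RPKM at day 15, against 66.8 RPKM at day 0. The 6 blood and macrophage markers (Ptprc, Csf1r, Emr1, Cd68, Lyz2 and Itgam) summed to at most 13.2 RPKM in any library. Tests were made with limma on log2(RPKM + 1) over 21097 genes, 61 of them histone genes, and a gene is called higher or lower at an adjusted p under 0.05. Log2 differences are on that scale, which understates changes of low genes. Many coding stretches of the 65 genes occur in another Hist gene of GENCODE M21, member or not, with a median of 81.8% of 50-base windows shared for H2A, 72.4% for H2B, 85.4% for H3 and 69.8% for H4 against 11.0% for H1, so how reads were divided among near-identical copies is uncertain.

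**Figure D1:**
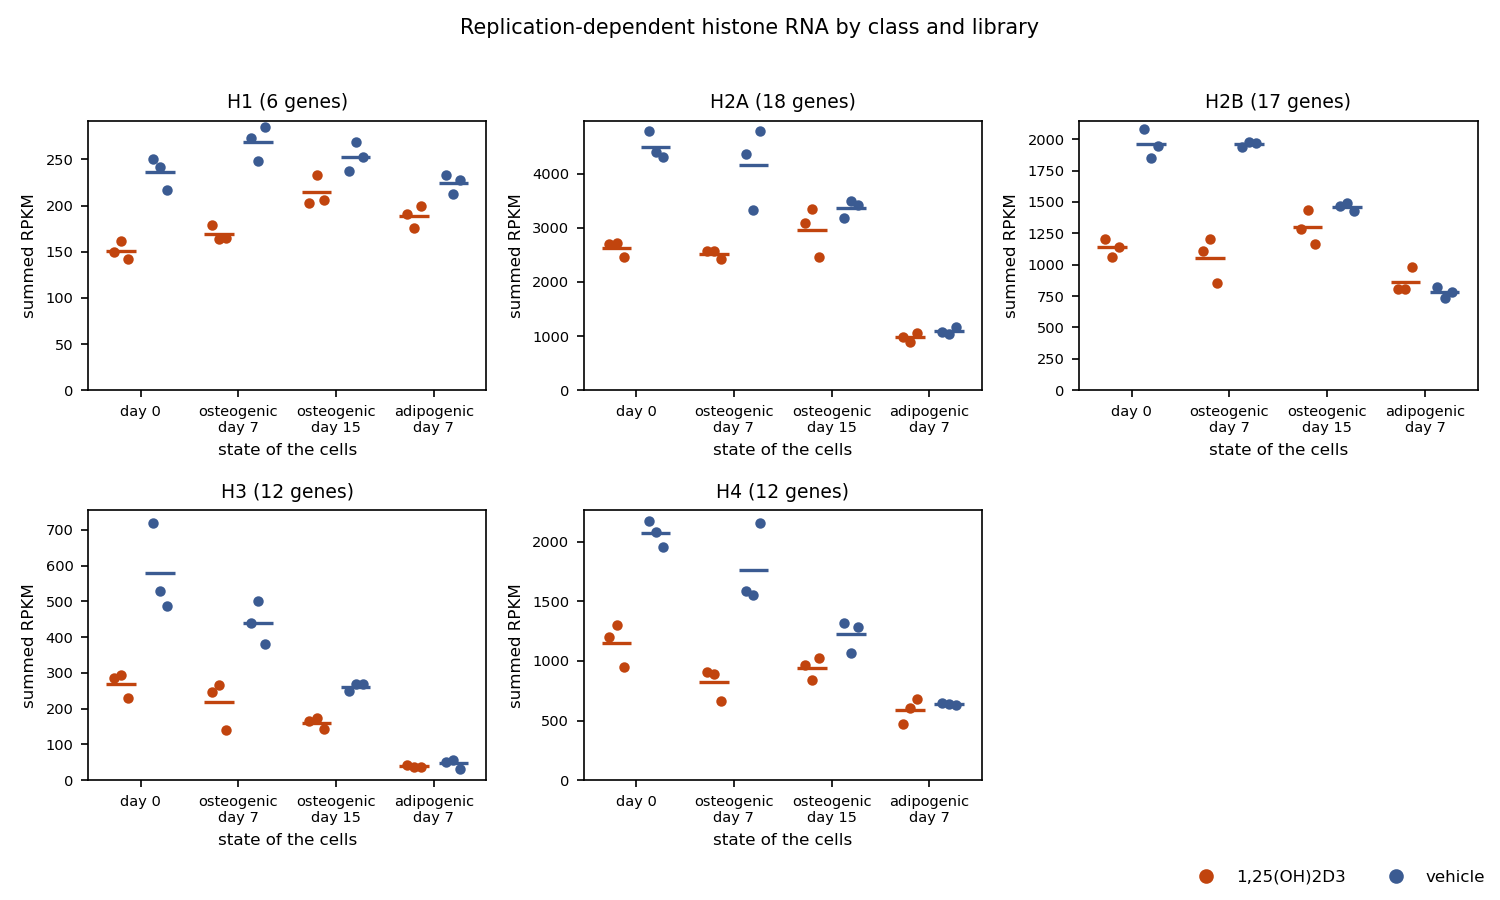
Summed RPKM of each histone class (panels) in the 4 states, with VD3-treated libraries left of vehicle libraries; points are single libraries and the line is the mean of 3. Adipogenic group means are lowest for H2A, H2B, H3 and H4 but not for H1, and the VD3 libraries lie below the vehicle libraries at day 0 and osteogenic day 7 in each class.

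In undifferentiated vehicle cells the classes differed widely in level. H2A genes summed to 4503 ± 252 RPKM, H4 genes to 2071 ± 111, H2B genes to 1958 ± 118, H3 genes to 578 ± 124.5 and H1 genes to 237 ± 17.2 RPKM (SD, n = 3 each). Together they made up 1.28% of the summed RPKM of all genes. Hist2h2aa2 and Hist2h2aa1, copies of an H2A gene, had the highest means over the 24 libraries, at 225 to 864 and 182 to 656 RPKM, although Hist1h2bc was above Hist2h2aa1 in all 6 adipogenic libraries and above Hist2h2aa2 in the 3 treated with VD3. The highest of the H2B genes at day 0 was Hist2h2bb, the highest H4 gene was Hist1h4k (299.8, 279 and 278 RPKM in the vehicle libraries) and the highest H3 gene was Hist1h3b (109.9, 82.1 and 66.9 RPKM).

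Adipogenic cells held far less core histone RNA than undifferentiated cells, and the classes fell unequally. H3 was lowest relative to day 0: the 12 genes summed to 51.3, 56.2 and 32.6 RPKM in the adipogenic vehicle libraries, against 719.9, 529 and 486 RPKM at day 0, a ratio of group means of 12.4. H2A was 4.10 times lower, H4 3.24 times and H2B 2.51 times, and no adipogenic library overlapped a day-0 library in any of these sums. The H1 sum was 233, 213 and 228 RPKM in adipogenic and 250.5, 242 and 217 RPKM in day-0 libraries, which overlapped. Against osteogenic day-7 vehicle cells, the other 7-day culture, H3 was 9.42 times lower, H2A 3.79, H4 2.76, H2B 2.52 and H1 1.20 times lower, each without overlap. In bulk RNA, fewer cells that express a gene and less RNA per cell cannot be told apart.

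Gene by gene, 54 of the 61 tested members were called lower and 2 higher in adipogenic than in day-0 cells, where 65.5% of all genes tested were lower and 13.2% higher. Against osteogenic day 7, 55 were lower and 2 higher, with backgrounds of 25.4% and 12.4%. The median difference of the members was -2.13 against day 0 and -1.80 against osteogenic day 7, where that of all genes was -0.83 and 0.02. The 12 H3 genes and 12 H4 genes were all lower in both comparisons, with medians against day 0 of -3.45 and -1.72; so were the 16 tested H2A genes (-2.39), 11 of 15 tested H2B genes (-1.04) and 3 of 6 H1 genes (-0.84). Rescaling the libraries by their median ratio moved the all-gene median from -0.83 to -0.39 and that of the members to -1.54. Subtracting each library's receptor-gene background left 51 members lower and 4 higher. With VD3-treated libraries in place of vehicle and replicate 2, the library with low background, as the lone day-0 library, 49 were lower, on the assumption that this library varies like the other groups.

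By class median, H3 genes fell most. Hist1h3b had 6.94, 6.84 and 3.43 RPKM in adipogenic libraries, against 109.9, 82.1 and 66.9 RPKM at day 0 and 71.1, 72.3 and 63.1 RPKM at osteogenic day 7. Its 3 adipogenic libraries were below every library of both other groups, and the differences were -3.72 ± 0.23 (SE; adjusted p = 1.01e-11) and -3.42 ± 0.23 (adjusted p = 3.45e-11). Hist1h3g had 2.98, 3.10 and 1.01 RPKM in adipogenic and 55.6, 42.2 and 37.1 RPKM in day-0 libraries, a difference of -3.82 ± 0.25 (adjusted p = 2.88e-11). Hist1h3h had 4.71, 4.36 and 1.80 RPKM in adipogenic and 82.2, 55.6 and 42.9 RPKM in day-0 libraries (-3.75 ± 0.30, adjusted p = 2.24e-09). In each of these H3 genes, replicate 3 was the lowest of the adipogenic vehicle libraries. The other abundant H3 genes behaved alike in this contrast, with -3.45 for Hist1h3c, -3.59 for Hist1h3d and -3.15 for Hist1h3e.

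H2A and H4 genes fell to an intermediate degree. Hist1h2ad had 76.2, 70.9 and 82.1 RPKM in adipogenic libraries, against 452, 419 and 386 RPKM at day 0 (-2.44 ± 0.13, adjusted p = 3.53e-13). Hist2h2aa2 had 285, 275 and 304 RPKM in adipogenic libraries, against 820.2, 691 and 826 RPKM at day 0 (-1.43 ± 0.12, adjusted p = 1.36e-09). Neither gene's groups overlapped. Hist2h2aa2 then held 26.2 ± 0.279% of the H2A sum in adipogenic cells and 17.3 ± 1.73% at day 0. For H4, Hist1h4k had 75.0, 76.6 and 81.3 RPKM in adipogenic and 299.8, 279 and 278 RPKM in day-0 libraries (-1.87 ± 0.14, adjusted p = 2.08e-10), with no overlap. Hist1h4m, Hist1h4c and Hist1h4b, the next H4 genes in mean level, differed by -2.30, -1.43 and -1.48.

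**Figure D2:**
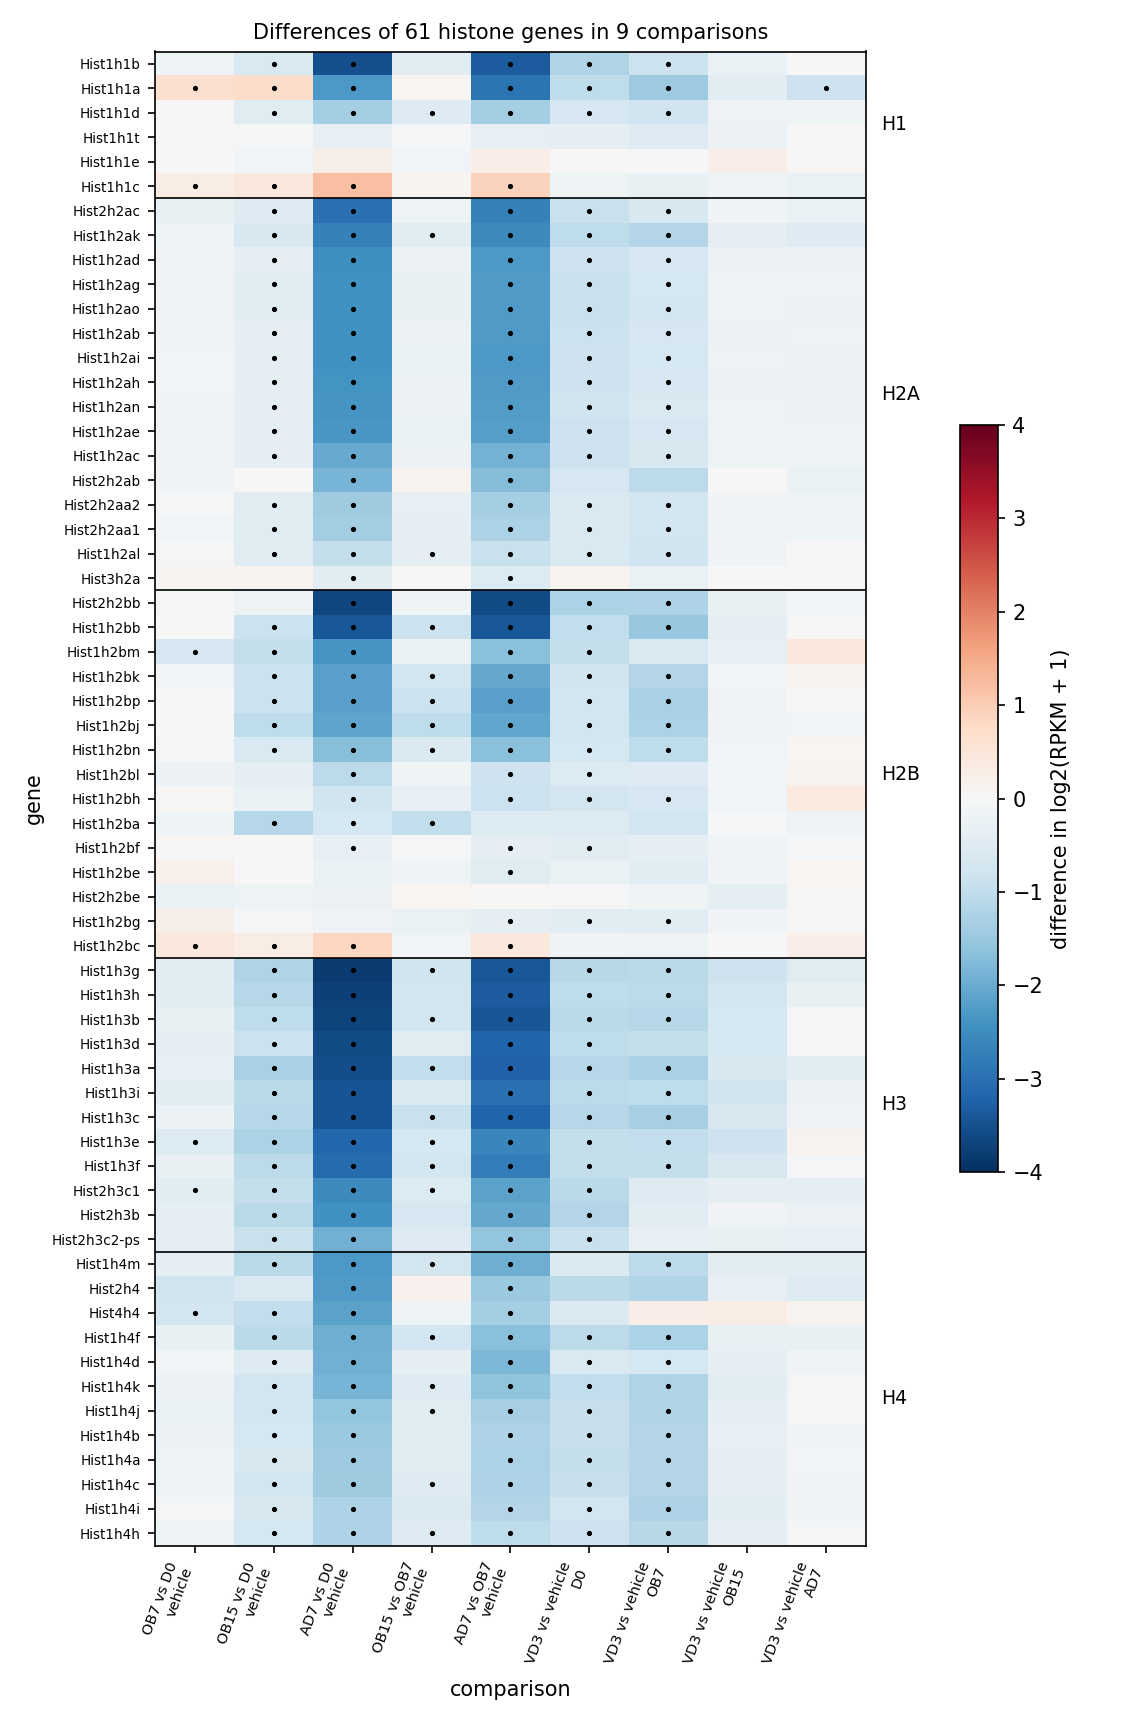
Log2 difference on the log2(RPKM + 1) scale (colour) for each tested histone gene, grouped by class, in the 9 comparisons (columns); black dots mark genes called at an adjusted p under 0.05. In the columns of adipogenic against other vehicle cells most genes are lower, with Hist1h1c and Hist1h2bc called higher, and most genes are lower in the VD3 columns of day 0 and osteogenic day 7.

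Within H1 the makeup changed while the sum overlapped. Hist1h1c, a linker histone gene whose RNA can be polyadenylated, had 191, 178 and 187 RPKM in adipogenic libraries, against 83.6, 80.7 and 73.5 RPKM at day 0 and 102, 91.0 and 101 RPKM at osteogenic day 7. All adipogenic libraries were above all others, and the differences were 1.22 ± 0.09 (adjusted p = 1.9e-10) and 0.91 ± 0.09 (adjusted p = 2.04e-08). Hist1h1b went the other way, with 5.60, 5.98 and 7.10 RPKM in adipogenic and 86.9, 84.3 and 72.9 RPKM in day-0 libraries (-3.51 ± 0.15, adjusted p = 8.97e-15). Hist1h1a had 9.91, 5.00 and 7.76 RPKM in adipogenic and 40.4, 41.9 and 36.5 RPKM in day-0 libraries (-2.29 ± 0.19, adjusted p = 6.96e-10), again without overlap. Hist1h1c therefore made up 82.6 ± 0.971% of H1 RPKM in adipogenic cells and 33.5 ± 0.286% at day 0, while Hist1h1b made up 2.77 ± 0.358% and 34.4 ± 0.716%. Hist1h1d also fell (-1.35), and Hist1h1e averaged 17.4 ± 0.949 RPKM in adipogenic and 14.6 ± 1.71 RPKM in day-0 cells (SD, n = 3 each; adjusted p = 0.064). Relative to 100 RPKM of core histone genes, H1 genes gave 8.76 ± 0.169 RPKM in adipogenic cells and 2.60 ± 0.12 RPKM at day 0. These shares are descriptions, with no test.

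**Figure D3:**
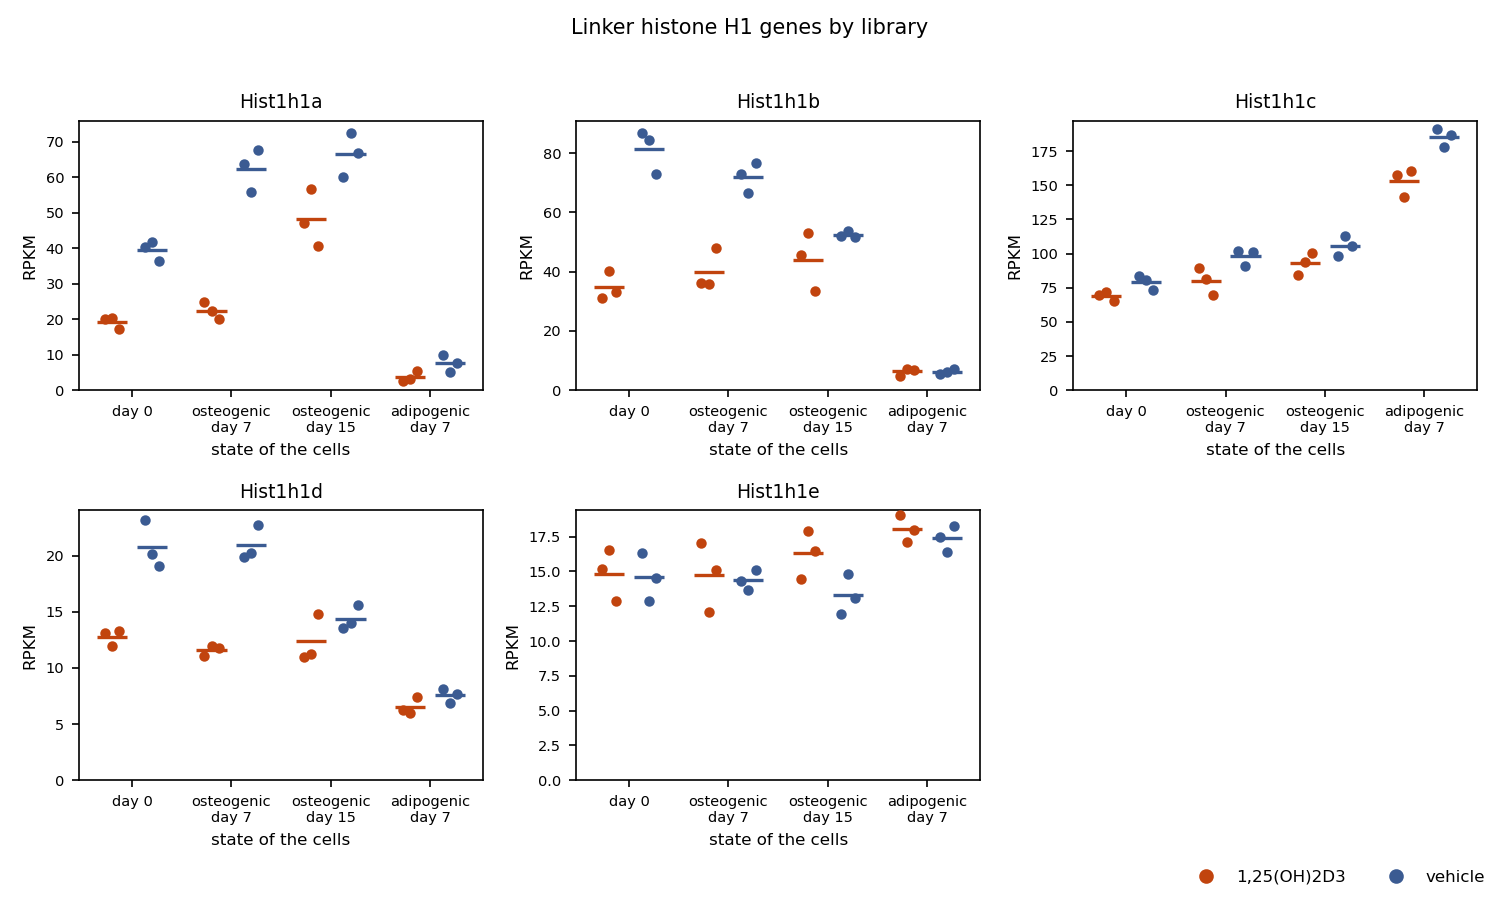
RPKM of 5 H1 genes in single libraries (points) with group means (lines), by state, VD3 left of vehicle. Hist1h1c is highest in adipogenic libraries, Hist1h1a is highest in the osteogenic vehicle libraries, and Hist1h1b is at or below 7.22 RPKM in every adipogenic library.

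Hist1h2bc was the only other member called higher in adipogenic cells. It is an H2B gene with known polyadenylated transcripts. It had 286, 259.8 and 280.1 RPKM in adipogenic libraries, against 152, 148 and 158 RPKM at day 0 and 222, 199.6 and 198 RPKM at osteogenic day 7, without overlap (0.85 ± 0.08, adjusted p = 8.11e-09, and 0.41 ± 0.08, adjusted p = 0.000189). Hist2h2bb, the main H2B gene at day 0, was at the other end. It had 38.2, 33.7 and 43.1 RPKM in adipogenic libraries, against 517, 466 and 471 RPKM at day 0, a difference of -3.63 ± 0.13 (adjusted p = 4.46e-16), and of -3.57 ± 0.13 against osteogenic day 7. Of the H2B sum, Hist1h2bc held 35.3 ± 0.612% in adipogenic and 7.80 ± 0.424% in day-0 cells, and Hist2h2bb held 4.92 ± 0.511% and 24.8 ± 0.515%. Of the 50-base coding windows of Hist1h2bc, 97.6% occur in another Hist gene of GENCODE M21, while Hist2h2bb and Hist1h1b share none. Hist1h2bb fell too, to 21.5, 19.9 and 18.5 RPKM in adipogenic libraries, against 235, 205 and 218 RPKM at day 0 (-3.39 ± 0.15, adjusted p = 1.49e-14), with no overlap.

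H2A and H2B genes often lie head to head and share the sequence between their starts. In GENCODE M21, 11 such divergent pairs had starts within 1000 bases, and both genes were tested in 9. In adipogenic against day-0 cells the H2B gene's log2 difference was above that of its H2A partner in 9 of 9 pairs, by 0.21 to 2.87 (median 1.37), and against osteogenic day 7 in 9 of 9, by 0.04 to 2.73. Hist1h2ac, the partner of Hist1h2bc, had 13.6, 12.6 and 16.2 RPKM in adipogenic libraries, against 64.1, 60.9 and 55.8 RPKM at day 0. These did not overlap, and the difference was -2.02 ± 0.13 (adjusted p = 5.56e-12), against 0.85 for Hist1h2bc. Hist1h2ad and Hist1h2bf differed by -2.44 and -0.33, Hist1h2ae and Hist1h2bg by -2.33 and -0.17, and Hist2h2ac and Hist2h2be by -3.00 and -0.22. Other pairs moved nearly together, such as Hist1h2ag and Hist1h2bj at -2.42 and -2.11, and Hist1h2an and Hist1h2bp at -2.37 and -2.17. The pairs share reads with other copies, and no test was made over them. Over all tested genes of each class, the medians against day 0 were -2.39 for H2A and -1.04 for H2B. The direction in the pairs was therefore that of the classes as a whole.

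**Figure D4:**
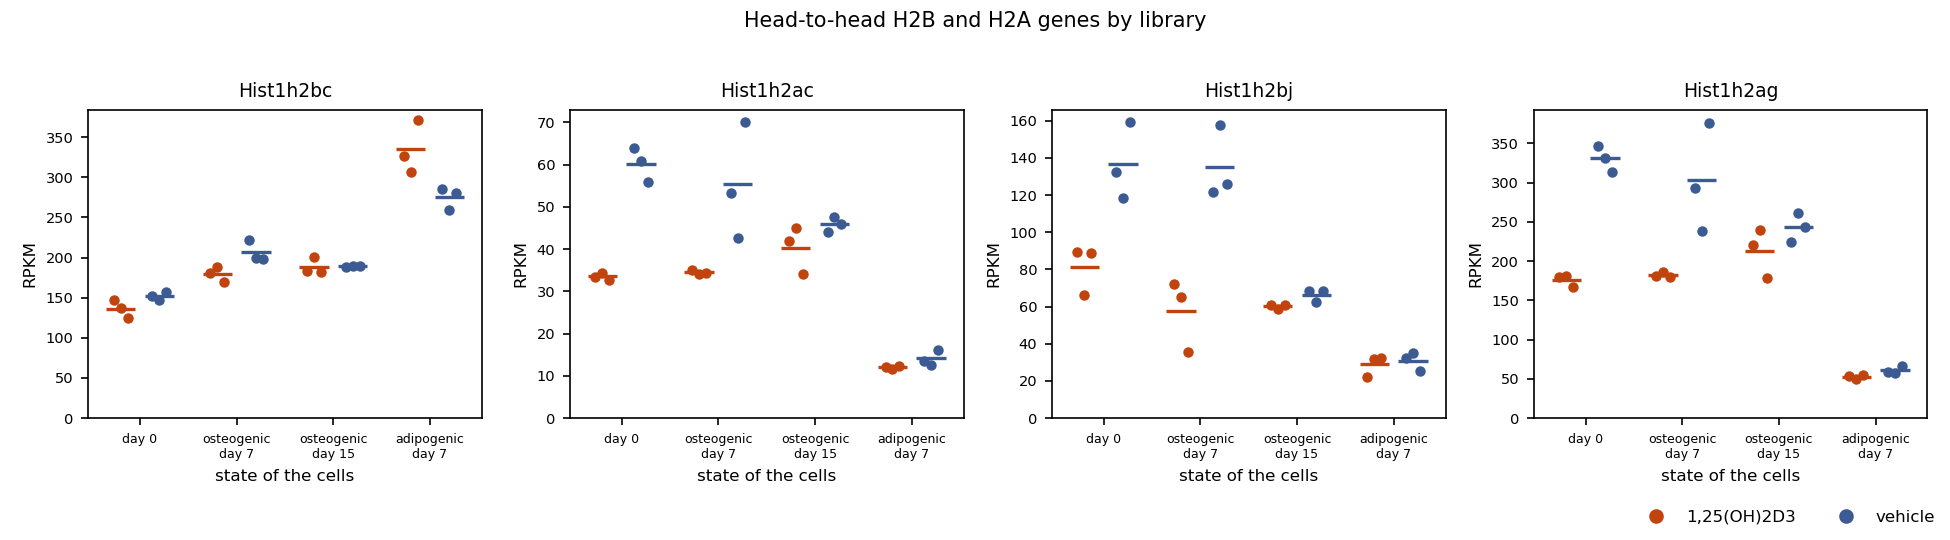
RPKM of both genes of the divergent pairs Hist1h2bc with Hist1h2ac and Hist1h2bj with Hist1h2ag, in single libraries (points) with group means (lines), by state, VD3 left of vehicle. Hist1h2bc is highest and Hist1h2ac lowest in adipogenic libraries, while Hist1h2bj and Hist1h2ag are both low there.

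In osteogenic medium fewer members were called than in adipogenic medium. At day 7, 3 of 61 members were called higher and 4 lower than at day 0, against 13.6% and 50.4% of all genes tested; the split was 13 higher and 0 lower after rescaling by median ratio and 4 higher and 15 lower after quantile normalization. With VD3-treated libraries in place of vehicle it was 1 higher and 14 lower, and with VD3 replicate 2 as the lone day-0 library 1 and 0. The median of the members was -0.15, but 0.27 after rescaling and -0.30 after quantile normalization, and that of all genes was -0.46, -0.08 and 0.09, so no direction is given for the family. Without vehicle replicate 3 of osteogenic day 7 the number lower was 16, and without replicate 2 it was 7. By day 15, 46 members were lower and 3 higher than at day 0 (53.4% and 17.5% of all genes), or 19 and 6 after rescaling, with a median of -0.61 for members and -0.55 for all genes. With VD3-treated libraries in place of vehicle, 10 were lower and 5 higher, and with VD3 replicate 2, the library with low background, as the lone day-0 library 2 were lower and 3 higher. Against osteogenic day 7, a comparison free of day-0 libraries, 22 were lower at day 15 and none was higher by limma's adjusted p, where 6.47% and 6.87% of all genes were; at an unadjusted p under 0.05 the numbers were 36 and 0. Rescaling left 13 lower, and in VD3-treated libraries the direction did not hold, with none lower and 4 higher. Without vehicle replicate 3 of day 7, or replicate 2 or 3 of day 15, 12, 11 and 11 were lower. The 3 day-0 comparisons share the same day-0 libraries, and osteogenic day 7 enters several comparisons.

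In vehicle cells the H3 and H4 sums were 2.21 and 1.69 times lower at day 15 than at day 0, by group means. The H3 sum was 719.9, 529 and 486 RPKM at day 0, 439, 500.5 and 381 RPKM at osteogenic day 7 and 249, 268 and 269 RPKM at day 15. The H4 sum was 2071 ± 111 RPKM at day 0, 1765 ± 342 RPKM at day 7 and 1222 ± 138 RPKM at day 15 (SD, n = 3 each). The day-15 libraries were below all day-0 libraries for both sums and for H2A and H2B, which were each 1.34 times lower, while the H1 sums overlapped. Against day 7, 7 H3, 6 H4, 6 H2B, 2 H2A and 1 H1 genes were lower. Hist1h3a had 19.7, 20.2 and 19.6 RPKM at day 15, against 39.8, 46.2 and 35.1 RPKM at osteogenic day 7 and 62.9, 45.5 and 44.9 RPKM at day 0. The day-15 libraries were below every library of both, by -0.98 ± 0.26 (adjusted p = 0.0145, but 0.0709 without replicate 2 of day 7, and 0.565 at -0.32 in VD3-treated libraries) and -1.30 ± 0.26 (adjusted p = 0.000237, but 0.112 with the lone day-0 library). Hist1h3e had 24.2, 26.8 and 24.0 RPKM at day 15 and 78.1, 55.3 and 52.6 RPKM at day 0 (-1.26 ± 0.21, adjusted p = 3.78e-05), and Hist1h3g differed by -1.21 ± 0.25 (adjusted p = 0.000279, but 0.0569 with the lone day-0 library). Hist1h2bj, an H2B gene, had 68.4, 62.5 and 68.2 RPKM at day 15, against 122, 158 and 126 RPKM at day 7 (-1.01 ± 0.20, adjusted p = 0.00143). In VD3-treated libraries its sign turned, to 0.12 (adjusted p = 0.873). Hist1h2ba, the H2B variant of the testis, had 14.5, 14.2 and 17.0 RPKM at day 15, against 28.3, 39.5 and 26.4 RPKM at day 7 (-0.98 ± 0.29, adjusted p = 0.0261). Its call was lost without replicate 2 of day 7 (adjusted p = 0.134) or without replicate 1 (0.076) or 2 (0.0864) of day 15. It was also lost in VD3-treated libraries (adjusted p = 0.687). Of the coding windows of Hist1h2ba, 37.7% occur in Hist1h2bj. Whether part of the RPKM listed for Hist1h2ba came from reads of Hist1h2bj was not tested.

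Hist1h1a, Hist1h1c and Hist1h2bc were higher than at day 0 at both osteogenic times. Hist1h1a had 40.4, 41.9 and 36.5 RPKM at day 0, 63.6, 55.7 and 67.7 RPKM at osteogenic day 7 and 60.0, 72.4 and 66.7 RPKM at day 15. Both osteogenic groups lay above all day-0 libraries, by 0.64 ± 0.19 (adjusted p = 0.00513) and 0.73 ± 0.19 (adjusted p = 0.00163), the opposite of this gene in adipogenic medium. Hist1h1c rose by 0.30 ± 0.09 (adjusted p = 0.00702) and 0.41 ± 0.09 (adjusted p = 0.000577), and Hist1h2bc by 0.43 ± 0.08 (adjusted p = 0.00013) and 0.31 ± 0.08 (adjusted p = 0.00176). Under quantile normalization the day-15 differences of Hist1h1c and Hist1h2bc, at 0.17 and 0.11, were no longer called, nor was that of Hist1h1c at day 7. In VD3-treated libraries the day-7 differences of Hist1h1a (0.21, adjusted p = 0.375) and Hist1h1c (0.20, adjusted p = 0.0802) were not called, nor with the lone day-0 library (0.875 and 0.663), where Hist1h1c was not called at day 15 either (0.0877). Hist1h1b was lower at day 15 (-0.62 ± 0.15, adjusted p = 0.00111), at 51.9, 53.7 and 51.5 RPKM against 86.9, 84.3 and 72.9 RPKM at day 0. Thus at day 15 Hist1h1a made up 26.2 ± 0.855% and Hist1h1b 20.8 ± 1.00% of H1 RPKM, against 16.7 ± 0.588% and 34.4 ± 0.716% at day 0. Lower already at day 7 was Hist4h4, the H4 gene outside the large clusters, with 12.8, 11.3 and 14.2 RPKM at osteogenic day 7 and 21.2, 22.7 and 23.4 RPKM at day 0 (-0.77 ± 0.22, adjusted p = 0.00474). Hist1h2bm (-0.67 ± 0.23) and Hist1h3e (-0.54 ± 0.21, adjusted p = 0.0282) were also lower at day 7. The Hist1h3e call was lost without day-0 replicate 1 (adjusted p = 0.161) or day-7 replicate 3 (0.106), and rescaling, background subtraction or the lone day-0 library ended all 3. In VD3-treated libraries Hist4h4 turned to 0.10 (adjusted p = 0.734) and Hist1h2bm was not called (0.213).

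Histone RNA was lower after 24 h of VD3 in undifferentiated and in osteogenic day-7 cells. At day 0, the VD3 libraries had core histone sums of 5403, 5383 and 4787 RPKM, against 9769, 8859.6 and 8705 RPKM in vehicle libraries, 43.0% lower by group means. At osteogenic day 7 the core sums were 4831, 4936 and 4077 RPKM with VD3, against 8322, 7365 and 9296 RPKM with vehicle, 44.6% lower. In both states no VD3 library reached the lowest vehicle library. The classes were lower by 36.1% (H1), 41.5% (H2A), 41.9% (H2B), 53.3% (H3) and 44.5% (H4) at day 0, and by 37.1%, 39.4%, 46.2%, 50.4% and 53.6% at osteogenic day 7, none with overlap.

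By gene, 49 of 61 members were called lower with VD3 at day 0, where 11.0% of all genes were, and 43 at osteogenic day 7, where 2.35% were. None was called higher in either state by limma (3.98% and 2.91% of all genes), and none at an unadjusted p under 0.05. Lower in both were 42 genes, 7 only at day 0 and 1 only at osteogenic day 7 by these calls. The medians were -0.84 at day 0 and -0.80 at osteogenic day 7, against -0.27 and 0.07 for all genes. Rescaling by median ratio left 28 lower at day 0, and a fit restricted to the compared libraries left 25 lower at osteogenic day 7. At day 0, 107 of the 1470 receptor genes were also called lower with VD3, and at osteogenic day 7 none; without VD3 replicate 2, whose background was low, 42 members were still lower at day 0. Small nucleolar RNA genes, also without poly(A) tails, had a median of -0.60 with VD3 at osteogenic day 7 and 0.05 at day 0.

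**Figure D5:**
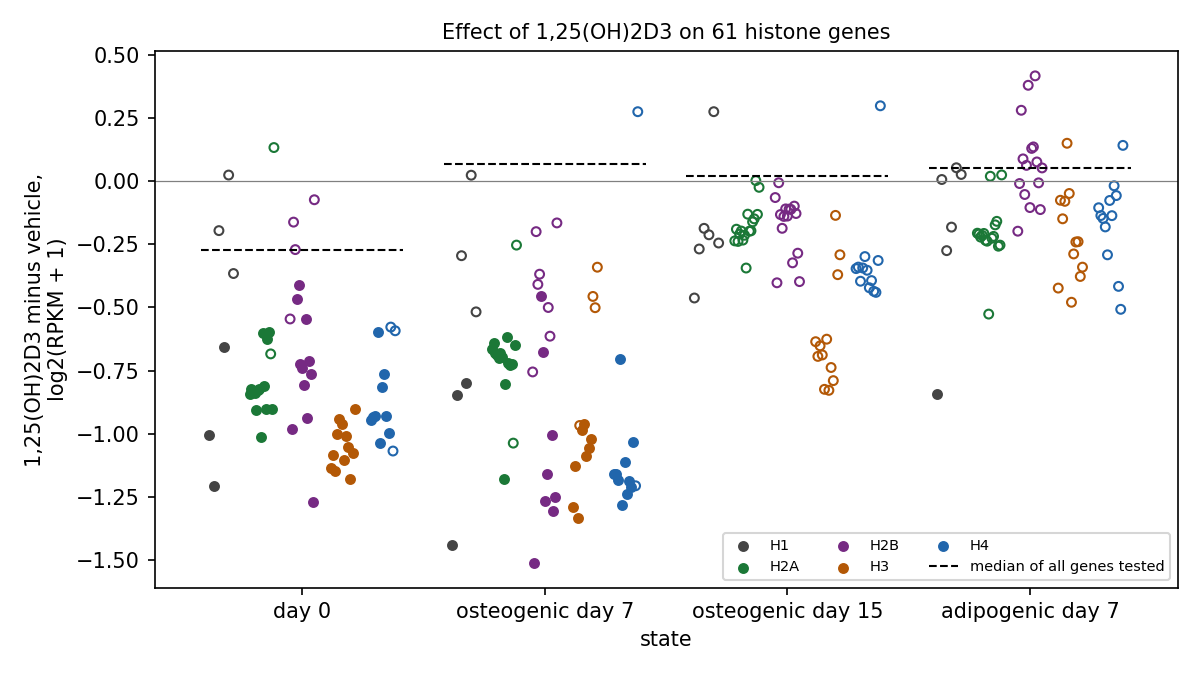
Log2 difference between VD3 and vehicle, on the log2(RPKM + 1) scale, for each tested histone gene (points, coloured by class) in the 4 states; filled points were called at an adjusted p under 0.05 and the dashed line is the median of all genes tested. Nearly all points lie below the line at day 0 and osteogenic day 7, and most lie closer to it at osteogenic day 15 and in adipogenic cells.

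Hist2h2bb and Hist1h1b led the decrease at day 0. Hist2h2bb had 216, 207 and 179 RPKM with VD3, against 517, 466 and 471 RPKM with vehicle (-1.27 ± 0.13, adjusted p = 4.61e-07). Hist1h1b had 30.9, 40.3 and 33.0 RPKM with VD3 and 86.9, 84.3 and 72.9 RPKM with vehicle (-1.21 ± 0.15, adjusted p = 6.65e-06). Hist2h3b, an H3 gene of the Hist2 cluster, had 5.75, 11.7 and 7.44 RPKM with VD3 and 20.4, 15.5 and 22.9 RPKM with vehicle (-1.18 ± 0.23, adjusted p = 0.00124). None of these groups overlapped. By class, 3 of 6 H1, 14 of 16 H2A, 11 of 15 H2B, 12 of 12 H3 and 9 of 12 H4 genes tested were lower.

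At osteogenic day 7 Hist1h2bb and Hist1h1a had the largest decreases, although no member's effect was called different between this state and day 0. Hist1h2bb had 82.7, 95.3 and 55.1 RPKM with VD3, against 200.0, 235 and 221 RPKM with vehicle (-1.51 ± 0.15, adjusted p = 4.66e-07). Hist1h1a had 24.8, 22.2 and 20.0 RPKM with VD3 and 63.6, 55.7 and 67.7 RPKM with vehicle (-1.44 ± 0.19, adjusted p = 1.88e-05). Hist1h3c had 22.9, 28.1 and 10.9 RPKM with VD3 and 47.4, 57.6 and 45.7 RPKM with vehicle (-1.33 ± 0.23, adjusted p = 0.000785, and 0.0749 when fitted on those libraries alone). Again no library of one group reached the other. Hist1h4k had 109, 103 and 98.1 RPKM with VD3, against 214, 217 and 298 RPKM with vehicle (-1.21 ± 0.14), and 147, 159 and 124 RPKM with VD3, against 299.8, 279 and 278 RPKM with vehicle at day 0 (-0.997 ± 0.14). Here 3 H1, 14 H2A, 8 H2B, 8 H3 and 10 H4 genes were lower.

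Neither gene that rose in adipogenic cells was called with the hormone at day 0 or osteogenic day 7. Hist1h1c had 69.7, 72.1 and 65.2 RPKM with VD3, against 83.6, 80.7 and 73.5 RPKM with vehicle at day 0 (-0.20 ± 0.09, adjusted p = 0.14). At osteogenic day 7 it had 89.7, 81.1 and 69.4 RPKM with VD3 and 102, 91.0 and 101 RPKM with vehicle (-0.30 ± 0.09, adjusted p = 0.0711). The groups did not overlap in either state, although the gene was not called. At osteogenic day 7 it was called lower with a filter of 5 RPKM (adjusted p = 0.0412). Leaving out VD3 replicate 1 did so too (-0.38, adjusted p = 0.0247), and the other 13 alternatives did not. Hist1h2bc differed by -0.16 ± 0.08 at day 0 (adjusted p = 0.156) and -0.20 ± 0.08 at osteogenic day 7 (adjusted p = 0.201). Hist1h1c made up 45.7 ± 0.917% of H1 RPKM with VD3 and 33.5 ± 0.286% with vehicle at day 0, and 47.3 ± 4.42% and 36.5 ± 1.00% at osteogenic day 7. Hist1h1e was not called in any comparison, and ranged over 12.0 to 19.0 RPKM.

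At osteogenic day 15 no member was called with VD3 by limma's adjusted p, where 0.526% of all genes were higher and 0.246% lower; at an unadjusted p under 0.05, 21 were lower and 1 higher. Of the 61 estimates, 58 were negative, with a median of -0.24 against 0.02 for all genes. The core sums were 5516, 5797 and 4799 RPKM with VD3, against 6221, 6325 and 6407 RPKM with vehicle, 15.0% lower by group means and without overlap, although the H2A and H2B sums overlapped. The H3 sum was 166, 174 and 143 RPKM with VD3 and 249, 268 and 269 RPKM with vehicle, without overlap, and the H1 and H4 sums did not overlap either. Hist1h3b, for example, had 25.9, 28.3 and 21.2 RPKM with VD3 and 39.5, 43.9 and 40.0 RPKM with vehicle, which did not overlap (-0.69 ± 0.23, adjusted p = 0.333).

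In adipogenic cells, where the family was already low, Hist1h1a was the only member called with VD3, against 0.574% of all genes lower and 1.51% higher. It had 2.72, 3.15 and 5.45 RPKM with VD3 and 9.91, 5.00 and 7.76 RPKM with vehicle, which overlapped (-0.84 ± 0.19, adjusted p = 0.0127). The call was lost without vehicle replicate 1 (adjusted p = 0.133) or 3 (0.0689), without VD3 replicate 1 (0.116) or 2 (0.0887), and in a fit restricted to the compared libraries (0.23); without vehicle replicate 2, 2 members were lower. Unadjusted, 4 members were lower and 2 higher at p under 0.05. Core sums were 2308, 2342 and 2756 RPKM with VD3, against 2605, 2467 and 2620.0 RPKM with vehicle, and overlapped. The H1 sum was 16.1% lower by group means with VD3, without overlap. Hist1h2bc had 327, 307 and 372 RPKM with VD3 and 286, 259.8 and 280.1 RPKM with vehicle, without overlap (0.28 ± 0.08, adjusted p = 0.0897).

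The hormone's effect was compared between states by the interaction term of the same limma fit, which shares vehicle and VD3 libraries between these differences. Between osteogenic day 7 and day 0 no member was called (2.55% of all genes were), with 4 members above and 2 below 0 at an unadjusted p under 0.05. Between adipogenic cells and day 0, 13 members were called (3.47% of all genes), and between adipogenic cells and osteogenic day 7, 18 were (1.82%), all with a smaller decrease or an increase in adipogenic cells. Hist2h2bb differed with VD3 by -0.11 in adipogenic cells, against -1.27 at day 0 and -1.25 at osteogenic day 7. Its difference of effects was 1.16 ± 0.19 (adjusted p = 0.000665) and 1.14 ± 0.19 (adjusted p = 0.00111). For Hist1h1b the effect was 0.01 in adipogenic cells, against -1.21 at day 0 (1.21 ± 0.21, adjusted p = 0.00169). Both genes were low in adipogenic cells, where this scale understates differences. Between osteogenic days 15 and 7, 4 members were called (0.185% of all genes): Hist1h2bb (1.11 ± 0.21, adjusted p = 0.0265), Hist1h2bk (1.05 ± 0.21), Hist2h2bb (0.96 ± 0.19) and Hist1h2al (0.67 ± 0.13), each less decreased at day 15. The 13 became 26, 8 and 8 without day-0 VD3 replicate 1, day-0 VD3 replicate 3 and adipogenic vehicle replicate 1. The 18 became 11 and 10 without osteogenic day-7 VD3 replicate 3 and adipogenic VD3 replicate 3. The 4 fell to 2 or fewer without any single vehicle library of either osteogenic time, or without day-15 VD3 replicate 1 or 2. Rescaling left 0, 10 and 0 of the 13, 18 and 4 counts.

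Members with known polyadenylated transcripts were then set beside the rest. This list held 10 genes, of which 9 were found and tested and Hist1h2bd was not among the symbols. It was chosen with earlier results of these data known, and it holds Hist1h1c and Hist1h2bc. The split below is therefore a description and no independent support. In adipogenic against day-0 cells 2 of the 9 were higher and 5 lower, with a median of -0.45. Of the other 52 members tested 49 were lower and none higher, with a median of -2.29. Of all genes, 13.2% were higher and 65.5% lower, with a median of -0.83. The list held no H3 gene, while the other 52 held all 12 H3 genes, whose median was -3.45. With VD3, 3 of the 9 were lower at day 0 (median -0.27) and 46 of the other 52 (median -0.90), and 3 and 40 at osteogenic day 7 (medians -0.30 and -0.98). Of all genes, 11.0% were lower with VD3 at day 0 (median -0.27) and 2.35% at osteogenic day 7 (median 0.07). The higher genes were Hist1h1c and Hist1h2bc, and the lower ones included Hist1h2ac and Hist4h4, so the list did not move as one. Hist3h2a, the Hist3 member, had 7.74, 6.90 and 7.61 RPKM in adipogenic and 10.0, 10.8 and 10.7 RPKM in day-0 libraries (-0.45 ± 0.10, adjusted p = 0.000683), without overlap, and was not called with VD3 in any state. Hist1h2be was lower in adipogenic than in osteogenic day-7 cells (-0.49 ± 0.13) and Hist2h2be, at 1.36 to 3.46 RPKM, was called in no comparison. Annotated length gave a split that overlaps this list. In adipogenic against day-0 cells, 16 genes with a transcript over 1000 bases had a median of -1.63, and 45 shorter ones -2.30. With VD3 at osteogenic day 7 these were -0.46 and -1.02. Hist1h1c, Hist1h2ac, Hist1h2bc, Hist1h2be, Hist2h2be, Hist3h2a and Hist4h4 are both on the list and among the longer genes, so the length split is no separate observation. Members with and without a stem-loop found had medians of -2.11 (43 genes) and -2.33 (18 genes) in adipogenic cells, and -0.73 and -0.82 with VD3 at osteogenic day 7. The genes without a match include some whose annotated transcript ends at the stop codon, such as Hist2h2bb and Hist1h4k. This split therefore cannot set apart genes that lack the element.

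Most genes of S phase were lower in adipogenic cells and, at day 0 and osteogenic day 7, with VD3. Of 25 such genes, 22 were lower and none higher in adipogenic than in day-0 cells, where 65.5% and 13.2% of all genes were. The median of the list was -1.52, against -0.83 for all genes. All 25 were lower against osteogenic day 7, where 25.4% of all genes were. Their sum was 230 RPKM with VD3 and 368 RPKM with vehicle at day 0, 243 and 391 RPKM at osteogenic day 7, 278 and 311 RPKM at osteogenic day 15, and 97.8 and 105 RPKM in adipogenic cells. With VD3, 20 were lower at day 0, 15 at osteogenic day 7, none at day 15 and 1 in adipogenic cells; 11.0% of all genes were lower at day 0 and 2.35% at osteogenic day 7. At osteogenic day 7 against day 0, 3 were higher and 2 lower, where 13.6% and 50.4% of all genes were. At day 15, 3 were higher (17.5% of all genes) and 10 lower, a smaller share than the 53.4% of all genes. The list's median there was -0.17, against -0.55 for all genes. Rrm2, a subunit of the enzyme that makes deoxynucleotides, averaged 2.02 RPKM in adipogenic and 27.6 RPKM in day-0 vehicle cells, and 10.2 RPKM with VD3 at day 0. What part cycling cells had in the histone values was not tested.

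Factors that make histone mRNA had smaller differences than the histone genes. Of 14 such genes, 9 were lower and 2 higher (Lsm10 and Ncbp1) in adipogenic than in day-0 cells, near the 65.5% and 13.2% of all genes, with a median of -0.62 against -0.83 for all genes. Against osteogenic day 7, 7 were lower and 1 higher (25.4% and 12.4% of all genes), with a median of -0.41 against 0.02. Slbp, which encodes the stem-loop binding protein, averaged 27.7 RPKM in adipogenic cells and 46.4 RPKM at day 0 and was lower by 0.73 on the log2 scale, and Npat averaged 3.47 RPKM in adipogenic and 5.98 RPKM in day-0 cells. With VD3, Slbp averaged 36.2 RPKM, against 46.4 RPKM with vehicle at day 0, and was not called (adjusted p = 0.054). With VD3 only Lsm11, of the U7 particle, was lower at day 0, Casp8ap2 and Eri1, a nuclease of the histone mRNA end, at osteogenic day 7, and no factor at day 15 or in adipogenic cells. At osteogenic day 7 against day 0, 1 was higher and 2 lower, where 13.6% and 50.4% of all genes were. At day 15, 5 were higher and 1 lower, where 17.5% and 53.4% of all genes were.

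Replication-independent histone genes, whose mRNAs are mostly polyadenylated, differed in direction among themselves. Of 11, 5 were lower and 2 higher in adipogenic than in day-0 cells, a smaller share lower than the 65.5% of all genes, with a median of -0.54 against -0.83 for all genes. Against osteogenic day 7, 7 were lower and none higher (25.4% and 12.4% of all genes), with a median of -0.72 against 0.02. Those above day 0 were H2afj, an H2A variant (0.93), and H1f0, the linker histone of resting and differentiated cells (0.22). Among the lower were H2afx, the variant phosphorylated at DNA breaks, whose gene also gives a stem-loop mRNA (-1.35), and the centromeric H3 gene Cenpa (-2.26). With VD3, H2afj was higher at day 0 (0.65) and at osteogenic day 7 (0.51), H2afx and H1f0 were lower at day 0, and H2afz and Cenpa were lower at osteogenic day 7. At osteogenic days 7 and 15, 5 and 4 were higher than at day 0 and none lower. The shares of all genes were 13.6% higher and 50.4% lower at day 7, and 17.5% and 53.4% at day 15. Of 14 histone chaperone genes, 10 were lower and 2 higher (Nap1l4 and Daxx) in adipogenic than in day-0 cells, near the 65.5% and 13.2% of all genes, with a median of -0.59. Compared with osteogenic day 7, 8 were lower and 2 higher (25.4% and 12.4% of all genes), with a median of -0.63 against 0.02. Daxx, which deposits variant H3, was higher with VD3 at day 0 (0.97), osteogenic day 7 (0.40) and osteogenic day 15 (0.41), while Nasp and Mcm2 were lower at day 0 and osteogenic day 7.

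Other RNAs without poly(A) tails were measured for comparison. Of 5 tested, 4 were lower in adipogenic than in day-0 cells, where 65.5% of all genes were, among them Rn7sk (-1.21) and Rny1 (-1.98). Against osteogenic day 7, 3 of the 5 were lower, where 25.4% of all genes were. None of the 5 was called with VD3 in any of the 4 states by limma. The small nucleolar RNA genes (41 with Snora or Snord symbols) gave at most 1 called gene in any state with VD3. In adipogenic against day-0 cells 16 of the 41 were lower, a smaller share than the 65.5% of all genes, with a median of -0.99 against -0.83. Against osteogenic day 7, 10 were lower, near the 25.4% of all genes, with a median of -0.86 against 0.02. At osteogenic day 7, however, their medians with VD3 were -0.36 for the 5 RNAs and -0.60 for the small nucleolar RNA genes, where that of the histone genes was -0.80 and that of all genes 0.07. The small nucleolar RNA genes summed to 1998 ± 835 RPKM with VD3 and 2880 ± 278 RPKM with vehicle in that state (SD, n = 3 each), and the libraries overlapped. At day 0 both medians with VD3 were 0.05, against -0.84 for the histone genes and -0.27 for all genes. The nuclear RNAs Malat1 and Neat1, by contrast, were both higher in adipogenic cells. The part of RNA recovery in the histone values was not tested.

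The filter of 1 RPKM in 3 libraries left out 4 members. Hist1h2aa, the testis H2A variant, reached at most 0.616 RPKM, Hist3h2ba 0.995 RPKM and Hist3h2bb-ps, a pseudogene, 0.811 RPKM. Hist1h2af was listed at 0 in 22 libraries and at 28.0 and 23.4 RPKM in adipogenic VD3 replicates 1 and 2. Hist1h1t, the testis H1 variant, passed the filter but stayed at or below 1.92 RPKM and was called in no comparison. With no filter the counts stayed at 54 lower in adipogenic than in day-0 cells and at 49 and 43 lower with VD3 at day 0 and osteogenic day 7, while 1 member became called higher with VD3 in adipogenic cells.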

How the data were processed

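Total RNA was depleted of ribosomal RNA and sequenced from directional libraries, per the labels' protocols. The authors deposited RPKM per transcript, with reads mapped by TopHat to mm9 per the submitters' processing notes; the quantifier, annotation and handling of reads with several matches are not given in the sources used here. RPKM is relative to the library total, so RNAs that rise elsewhere lower the rest. From the 30795 entries of each library, 40 with date-like symbols (25 symbols) were left out, values were summed by symbol, and 21097 genes reaching 1 RPKM in 3 or more of the 24 libraries were fitted as log2(RPKM + 1) with limma 3.58.1 (R 4.3.3; lmFit, eBayes with trend and robust) in 1 model of 8 groups. P-values were adjusted by Benjamini-Hochberg over all genes and called under 0.05. Tables and figures used Python 3.11.15, numpy 2.4.6, pandas 2.3.3 and matplotlib 3.10.9. Depth was estimated from the step between low values, so it is approximate; 3 reads on a 1000-base transcript equal 0.0635 to 0.421 RPKM, which covers counting error only. The VD3 comparison at osteogenic day 7 was tested on simulated data over 21097 genes, in 2 draws. The changed genes were drawn only from those whose mean log2(RPKM + 1) was above that of 5 RPKM, and the other genes were given no difference. It recovered 93% and 82% of 100 genes changed 2-fold and 68% and 53% of 100 changed 1.5-fold, with 12 and 4 false calls. Recovery varied between draws, and that of lower genes was not measured. The genes, their lists and the named genes were chosen with earlier results of these data known. Named genes were the 4 highest of each class, up to 3 called each way per comparison by size among those without overlap and above a level of 5 RPKM in the higher group, testis variants, Hist3 and Hist4 genes and the poly(A) list. Alternatives were another pseudocount, other filters, other scalings, background subtraction, a replicate block, a fit restricted to the compared libraries, the largest transcript, VD3-treated libraries for vehicle, and leaving out each library. Sequences came from RefSeq (GRCm38.p6) and GENCODE M21, and no coordinates were taken across builds.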

Additional observations from a re-analysis of the deposited data

Results flagged for a closer look

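Differences in the hormone's effect between states passed the interaction test of the limma fit for several members. Between adipogenic and day-0 cells there were 13, among them Hist1h2bm (1.356 on the log2 scale), Hist1h1b (1.215) and Hist2h2bb (1.157). Between adipogenic and osteogenic day-7 cells there were 18, led by the H2B genes Hist1h2bb (1.503), Hist1h2bp (1.298) and Hist1h2bk (1.289). Between osteogenic days 15 and 7 there were 4, including Hist1h2bb (1.11), Hist1h2bk (1.049) and Hist2h2bb (0.964). Each value is the VD3 effect in the first state minus that in the second, and a positive value means less decrease in the first. The 3 sets share libraries, and the counts moved with single libraries as given in the report. By class, the 18 held 8 H2B, 7 H4, 2 H1, 1 H2A and no H3 genes, and the 13 held 6 H2B, 3 H2A, 2 H4, 1 H1 and 1 H3 genes.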

How the results depend on the processing

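Of the named genes' values under the alternatives, 839 kept direction and side of the threshold, 36 kept direction but were no longer called, 5 became called and 16 changed sign; of the counts, 309 stayed within 1.5 times and 61 did not. Rescaling by median ratio gave 13 higher and 0 lower at osteogenic day 7 against day 0, 6 and 19 at day 15, 4 higher in adipogenic cells, 13 lower at osteogenic day 15 against 7, 3 higher in adipogenic against osteogenic day-7 cells, 28 lower with VD3 at day 0, and differences of 0 (adipogenic against day 0), 10 (adipogenic against osteogenic day 7) and 0 (osteogenic 15 against 7). Quantile normalization gave 15 lower at osteogenic day 7 and 4 higher in adipogenic cells against day 0, and 3 higher against osteogenic day 7. Background subtraction gave 8 higher and 0 lower at osteogenic day 7, 6 higher at day 15, 4 higher in adipogenic cells, 2 lower with VD3 in adipogenic cells, and 0 for osteogenic 15 against 7. A fit restricted to the compared libraries gave 7 lower at osteogenic day 7 against day 0, 3 higher in adipogenic against osteogenic day-7 cells, 25, 4 and 0 lower with VD3 at osteogenic days 7 and 15 and in adipogenic cells, and differences of 20, 7 and 0. VD3-treated libraries in place of vehicle gave 1 higher and 14 lower (osteogenic day 7), 5 and 10 (day 15), 4 and 0 (day 15 against 7) and 42 lower (adipogenic against osteogenic day 7); with replicate 2 as the lone day-0 library, an alternative chosen after seeing the data, 1 and 0 at osteogenic day 7 and 2 lower at day 15. With VD3 in adipogenic cells a pseudocount of 0.1 and a filter of 5 RPKM each gave 2 lower and no filter gave 1 higher. The causes were not tested.

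Leaving out 1 library gave 3 to 4 higher and 3 to 16 lower (osteogenic day 7 against day 0), 3 higher and 39 to 46 lower (day 15), 2 to 3 and 52 to 55 (adipogenic), 0 and 11 to 24 (osteogenic 15 against 7), 2 and 53 to 55 (adipogenic against osteogenic day 7). With VD3 the range lower was 42 to 51 at day 0, 38 to 44 at osteogenic day 7, 0 at day 15 and 0 to 2 in adipogenic cells, and none was higher. Differences of effects ranged over 8 to 26, 10 to 19 and 0 to 4, and stayed 0 for osteogenic day 7 against day 0.

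Signs changed as follows. With VD3-treated libraries, Hist4h4 (0.10, osteogenic day 7 against day 0), Hist1h2bj (0.12), Hist1h2bc (0.071) and Hist1h2ac (0.21, all osteogenic 15 against 7), and Hist1h2ac against day 0 (0.040 at day 7, 0.25 at day 15). With the lone day-0 library, Hist1h2ac (0.0081 and 0.22). After rescaling, Hist1h2ac (0.28 at day 7, 0.0036 at day 15), and with VD3 at day 0 Hist1h1c (0.049) and Hist1h2bc (0.084). Leaving out 1 library, Hist1h2ac at osteogenic day 7 against day 0 ranged over -0.33 (without vehicle replicate 3 of day 7, where it was called) to 0.024 (without replicate 2). With VD3 at osteogenic day 15, Hist1h2bc was 0.0072 under quantile normalization and ranged over -0.052 to 0.016 on leaving out 1 library. Only the Hist4h4, Hist1h2bj and day-15 Hist1h2ac values had been called. With VD3-treated libraries, Hist1h1a and Hist1h1c were no longer called at osteogenic day 7.

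Correlations of same-numbered deviations were -0.0945 to 0.166, and in no comparison did all 3 exceed 0.1. Whether libraries of the same replicate number shared a culture or day is not in the labels, and these correlations cannot settle it. The replicate block gave 48, 44 and 2 lower with VD3 at day 0 and osteogenic days 7 and 15, and 15, 21 and 3 differences. Depth limits the day-0 libraries most, and members at or below 1 RPKM cannot be compared.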

Other observations

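Ratios between members of a class were steadier for some genes than others over the 24 libraries. For pairs of members with a mean of at least 5 RPKM, the highest ratio of their levels divided by the lowest had a median of 9.57 for H1, 4.70 for H2B, 3.67 for H3, 3.14 for H4 and 2.52 for H2A. The ratio of Hist1h2ag to Hist1h2ao varied by a factor of only 1.04, and 91.8% of the 50-base coding windows of Hist1h2ag occur in Hist1h2ao; Hist1h1a to Hist1h1c varied by 38.8. As a share of all histone RPKM, H1 genes made up 8.06 ± 0.142% in adipogenic and 2.53 ± 0.114% in day-0 vehicle cells, and H3 genes 1.68 ± 0.487% and 6.15 ± 0.916%. The share of H2B was 32.5 ± 0.535% with VD3 and 28.0 ± 0.98% with vehicle in adipogenic cells (SD, n = 3 each).

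The Hist1 and Hist2 clusters, on different chromosomes, were lower by like amounts with VD3 at day 0, by 43.3% and 41.8% of their summed RPKM. All histone genes together made up 0.721% of the summed RPKM of all genes with VD3 and 1.28% with vehicle at day 0, 0.841% and 1.35% at osteogenic day 7, 0.856% and 0.998% at osteogenic day 15, and 0.478% and 0.502% in adipogenic cells. Rn7sk is part of that total and averaged 183671 RPKM in day-0 and 80402 RPKM in adipogenic vehicle cells. These shares therefore also depend on it. In divergent pairs, the H2B gene's difference with VD3 was above that of its H2A partner in 9 of 9 pairs at day 0, 6 of 9 at osteogenic day 7 and 9 of 9 in adipogenic cells. Over all tested genes of each class, the medians with VD3 at day 0 were -0.71 for H2B and -0.82 for H2A. Hist1h2af, at 0 in 22 libraries, had 28.0 and 23.4 RPKM in adipogenic VD3 replicates 1 and 2 and 0 in replicate 3.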
